A study of Mus musculus with 6 samples.

Results

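The genes described are the 10 members of the insulin receptor signalling chain in fat, taken by gene symbol from a table of 19241 genes: the receptor gene Insr, the substrate genes Irs1 and Irs2, the PI3 kinase genes Pik3r1 and Pik3ca, the kinase genes Akt1 and Akt2, and 3 effectors of insulin action, Tbc1d4, Slc2a4 and Pde3b. All 10 symbols were found, each in a single row. They were measured by bulk RNA sequencing of the whole interscapular brown adipose depot of newborn mice. The WT group holds 3 libraries whose genotype is given as Fstl1-floxed, and the KO group holds 3 libraries whose genotype is given as Myf5-Fstl1 KO. Fstl1 encodes follistatin-like 1, a secreted glycoprotein. Myf5 marks precursors of skeletal muscle and of much of this fat depot, and the control animals carry the floxed gene too. The labels name no Cre line, strain, sex or number of animals per library, and a newborn stage without an age in hours or days. The comparison asks how the RNA of the chain differs between a depot that lacks Fstl1 in the Myf5 lineage and one that does not.

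Insulin binds its receptor, a tyrosine kinase, which phosphorylates the docking proteins IRS1 and IRS2. These recruit PI3 kinase, a dimer of a regulatory subunit such as the product of Pik3r1 and a catalytic subunit such as the product of Pik3ca, and the lipid that it makes brings AKT to the membrane. In fat cells AKT phosphorylates AS160, the product of Tbc1d4, which releases vesicles carrying the glucose transporter GLUT4, the product of Slc2a4, and it acts on the phosphodiesterase PDE3B, which breaks down cyclic AMP and so restrains lipolysis. Brown fat is one of the tissues with the highest insulin-dependent glucose uptake. RNA levels do not report receptor or kinase activity, which in this chain is set largely by phosphorylation.

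Values are FPKM, fragments per kilobase of transcript mapped, scaled to library size, so levels can be compared between genes per length. Fstl1 was lower in each KO library (7.93 to 13.1 FPKM) than in any WT library (54.4 to 130.04 FPKM). Xist lay at 44.8 to 85.5 FPKM in WT and at 0.05 to 0.92 FPKM in KO, and the Y-linked gene Ddx3y at 0 to 0.23 FPKM in WT and at 59.5 to 60.8 FPKM in KO, so sex and genotype coincide in these libraries and cannot be told apart in any difference below. Each library held an estimated 13900000 to 15100000 fragments, judged by the spacing of its low FPKM values. By that estimate the lowest value of any of the 10 genes, Irs2 in WT replicate 2, rests on about 277 fragments. The adipocyte marker Adipoq was at 889 to 1079 FPKM in WT and at 1072 to 1216 FPKM in KO, and Plin1, which coats lipid droplets, at 174 to 309 FPKM in WT and 76.6 to 106 FPKM in KO. Of 10 adipocyte markers, 4 (Plin1, Cidec, Lep and Ucp1) were lower in every KO library than in any WT library, beside 1515 of 13331 tested genes. Plin1 and Lep passed the threshold (limma, adjusted p 0.0267 and 0.0423), and the thermogenic gene Ucp1 stood at 48.9% of its WT mean (limma, adjusted p 0.0804). Lep lay near the floor, at 0.91 to 2.22 FPKM in WT and 0.06 to 0.13 FPKM in KO. It reached the filter of 0.5 FPKM only through its WT libraries, so its adjusted p is not used as support. The part of these differences in the results below was not tested. The summed level of 12 skeletal muscle markers was 1318 to 1917 FPKM in WT and 331, 1450 and 1747 FPKM in KO replicates 1, 2 and 3. The summed level of 10 macrophage markers was 123 to 182 FPKM in WT and 173 to 236 FPKM in KO, and 5 of these 10 were higher in every KO library than in any WT library, beside 1810 of 13331 tested genes. None of the markers in these 3 lists was at 0 in any library. In a bulk sample, fewer cells of a type and less RNA per cell cannot be told apart.

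None of the 10 genes was past the adjusted threshold of 0.05 (limma), where 2.21% of the 13331 genes tested did. The lower genes in KO were Slc2a4, at 48.0% of the WT mean, Tbc1d4, at 55.7%, Pik3r1, at 62.6%, Akt1, at 70.0%, and Akt2, at 79.9%. The higher ones were Irs2, at 152% of the WT mean, Pde3b, at 146%, Insr, at 137%, and Pik3ca, at 132%, while Irs1 was at 100.3%. At an unadjusted p under 0.05 there were 5 of the 10, 4 lower (Akt1, Tbc1d4, Slc2a4 and Pik3r1) and 1 higher (Pik3ca), where 19.2% of all tested genes were. The groups did not overlap in 4 of the 10, Akt1, Tbc1d4 and Slc2a4 lower and Pik3ca higher, where they did not overlap in 24.9% of all tested genes. The median log2 fold change of the 10 genes was −0.14, from −1.18 to 0.53, beside 0.01 for all tested genes.

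**Figure D1:**
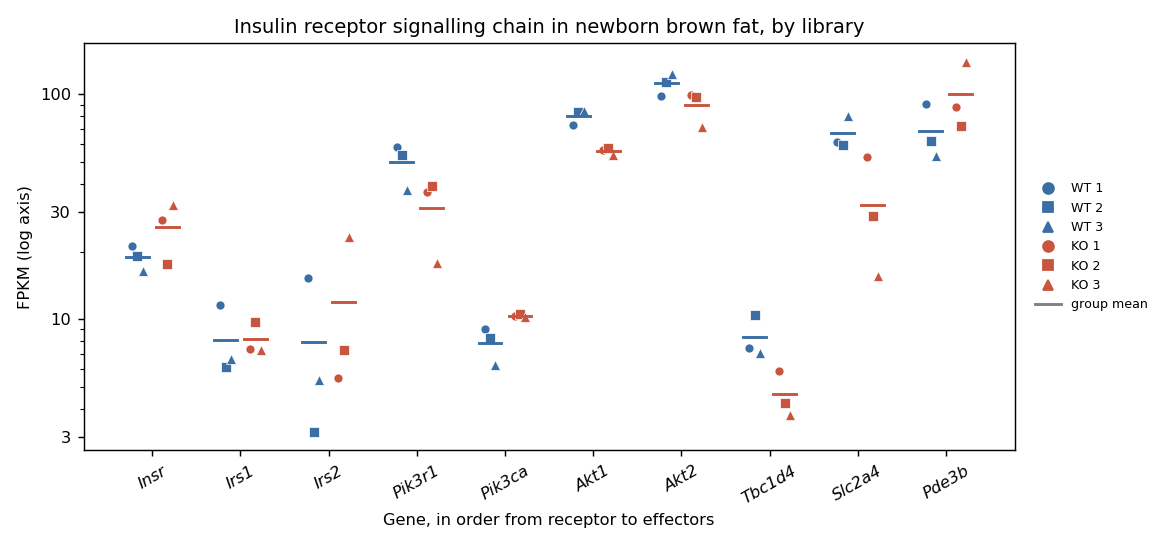
FPKM (log axis) of the 10 genes in each library, WT in blue and KO in red, with the replicate number given by the marker and the group mean by a bar. The 3 KO libraries lie below all WT libraries for Akt1, Tbc1d4 and Slc2a4 and above them for Pik3ca, and Irs2 is spread from 3.15 to 23.2 FPKM.

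The receptor gene Insr (Entrez gene 16337; chromosome 8, 3150922 to 3279649, mm10) was measured with 21.1, 19.1 and 16.4 FPKM in the WT libraries and 27.6, 17.6 and 32.3 FPKM in the KO libraries, given here and below in the order of the replicate numbers. KO replicates 1 and 3 were above every WT library and KO replicate 2 lay within the WT range, so the groups overlapped. The means were 18.9 ± 2.37 FPKM in WT and 25.8 ± 7.50 FPKM in KO (SD, n = 3 each). The log2 fold change was 0.40 with a 95% interval of −0.10 to 0.90 (limma, adjusted p 0.365), 0.22 without KO replicate 3 and 0.64 without KO replicate 2.

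The docking proteins IRS1 and IRS2 are the receptor's main substrates. Irs1 (16367; chromosome 1, 82233105 to 82291439, mm10) was measured with 11.6, 6.13 and 6.66 FPKM in the WT libraries against 7.37, 9.75 and 7.30 FPKM in the KO libraries. Its group means differed by less than the spread between libraries, 8.12 ± 2.99 FPKM in WT and 8.14 ± 1.39 FPKM in KO (SD, n = 3 each), with a log2 fold change of 0.04 and a 95% interval of −0.48 to 0.56 (limma, adjusted p 0.947). Irs2 (384783; chromosome 8, 10984681 to 11008929, mm10) was measured with WT values of 15.2, 3.15 and 5.35 FPKM and KO values of 5.45, 7.32 and 23.2 FPKM. One library of each group stood high, WT replicate 1 and KO replicate 3, and the other 4 lay between 3.15 and 7.32 FPKM. The coefficient of variation of Irs2 was 81.2% in WT and 81.3% in KO, larger than that of any of the other 9 genes in either group (1.65% to 58.0%). The log2 fold change of 0.53 had a 95% interval of −0.75 to 1.82 (limma, adjusted p 0.651). It was 1.09 when WT replicate 1 was left out and −0.04 when KO replicate 3 was.

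The stretches before the start sites of both substrate genes are shown because Irs2 is the member that varied most between libraries and Irs1 is its closest relative in the list. They were read from RefSeq promoter windows of GRCm38.p6, the assembly known as mm10, and run 5′ to 3′ on the strand of the gene, 250 bases up to the start site, at chr1:82291440-82291689 and chr8:11008930-11009179, both on the minus strand. Capitals mark matches to an E-box (CACGTG) and to an insulin response element core (CAAAACA, here on the opposite strand).
Irs1: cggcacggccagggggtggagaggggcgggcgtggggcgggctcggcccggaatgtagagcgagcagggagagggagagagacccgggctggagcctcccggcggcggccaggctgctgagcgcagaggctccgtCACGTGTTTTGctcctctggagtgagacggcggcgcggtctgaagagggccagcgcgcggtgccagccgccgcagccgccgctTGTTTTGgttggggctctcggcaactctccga
Irs2: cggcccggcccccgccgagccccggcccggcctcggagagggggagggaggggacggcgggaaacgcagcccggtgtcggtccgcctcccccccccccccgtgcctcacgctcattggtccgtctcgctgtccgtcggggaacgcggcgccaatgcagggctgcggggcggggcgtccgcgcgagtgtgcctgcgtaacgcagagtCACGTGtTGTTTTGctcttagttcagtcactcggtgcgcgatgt
Each window held 1 E-box beside an insulin response element core. In Irs1 these matches overlap, and a second core lies nearer to the start site. In Irs2 a single base separates them. Over all 32851 windows of this length, searched on both strands, an E-box was found in 6.02% and the insulin response element core in 5.56%. Both were found in 0.295%. All windows had a median GC content of 52.4%, against 72.4% for Irs1 and 72.8% for Irs2, and were not matched for it. The FOXO core GTAAACA was searched for too and was in 3.17% of all windows. It was in neither the Irs1 nor the Irs2 window. Of the 12 windows of the 7 members that had one, it was in 1, a window of Akt1. A sterol response element (TCACNCCAC), in 1.05% of all windows, was in none of the 12. RefSeq windows for Insr, Slc2a4 and Pde3b were not used here. A match is a description of the letters only.

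In PI3 kinase the regulatory and the catalytic gene lay in opposite directions. Pik3r1 (18708; chromosome 13, 101680761 to 101768217, mm10), the regulatory subunit p85-alpha and its shorter forms, was measured with 58.4, 53.6 and 37.6 FPKM for WT against 36.7, 39.2 and 17.8 FPKM for KO. WT replicate 3 lay between KO replicates 1 and 2, and KO replicate 3 was far below the others. The means were 49.9 ± 10.9 and 31.2 ± 11.7 FPKM (SD, n = 3 each), with a log2 fold change of −0.71 and a 95% interval of −1.38 to −0.05 (limma, adjusted p 0.235), and −0.36 without KO replicate 3. The table lists 2 RefSeq transcripts for Pik3r1 in a single row, so its isoforms were not separated. Pik3ca (18706; chromosome 3, 32397065 to 32466112, mm10), the catalytic subunit p110-alpha, was measured with 9.03, 8.26 and 6.25 FPKM in the WT libraries against 10.3, 10.5 and 10.2 FPKM in the KO libraries. All KO libraries were above all WT libraries and lay close together. The means were 7.85 ± 1.44 and 10.4 ± 0.17 FPKM (SD, n = 3 each), with a log2 fold change of 0.37 with a 95% interval of 0.01 to 0.74 (limma, adjusted p 0.248), and 0.24 without WT replicate 3, the lowest library.

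Both AKT genes were lower on average in KO, and Akt1 was the member with the smallest p-value. Akt1 (11651; chromosome 12, 112653821 to 112674884, mm10), the broadly expressed kinase, was measured with WT values of 72.8, 83.2 and 84.4 FPKM and KO values of 56.8, 57.6 and 53.9 FPKM. The groups were apart, with the nearest libraries at 72.8 and 57.6 FPKM. The means were 80.1 ± 6.39 and 56.1 ± 1.98 FPKM (SD, n = 3 each), with a log2 fold change of −0.50 with a 95% interval of −0.80 to −0.21 (limma, adjusted p 0.0843), and between −0.57 and −0.47 whichever library was left out. The exact permutation test of the FPKM gave 0.1, the smallest two-sided p that 3 against 3 allows, here and for Pik3ca, Tbc1d4 and Slc2a4. Akt2 (11652; chromosome 7, 27591552 to 27640826, mm10), the isoform most tied to insulin action in fat and muscle, was measured with 98.8, 113.7 and 123.8 FPKM for WT against 99.6, 97.5 and 71.6 FPKM for KO. KO replicate 1 was above WT replicate 1, and KO replicate 3 was the lowest. The log2 fold change was −0.33 with a 95% interval of −0.71 to 0.06 (limma, adjusted p 0.333), and −0.18 without KO replicate 3. Akt2 was above Akt1 in all 6 libraries.

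The window of Akt1 that held the FOXO core is shown because Akt1 is the member with the smallest p and FOXO factors are targets of AKT. It covers 250 bases up to a RefSeq start site of Akt1 at chr12:112674885-112675134 on the minus strand (GRCm38.p6), 5′ to 3′ on the strand of the gene, with the match to GTAAACA, on the opposite strand, in capitals.
Akt1: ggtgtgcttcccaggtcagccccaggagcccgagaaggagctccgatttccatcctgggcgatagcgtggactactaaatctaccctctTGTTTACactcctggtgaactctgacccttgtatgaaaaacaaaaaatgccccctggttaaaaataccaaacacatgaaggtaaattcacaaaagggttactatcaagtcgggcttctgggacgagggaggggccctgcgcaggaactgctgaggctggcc
The other Akt1 window held none of the 4 motifs, nor did the windows found for Akt2, Pik3ca, Pik3r1 and Tbc1d4.

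Of the effectors, the genes for both proteins of glucose uptake were lower in every KO library than in any WT library. Slc2a4 (20528; chromosome 11, 69942286 to 69948216, mm10), which encodes GLUT4, was measured with 61.6, 59.6 and 80.5 FPKM in the WT libraries against 52.6, 28.7 and 15.6 FPKM in the KO libraries. WT replicate 3 was above the other WT libraries, and the KO libraries were spread more widely, from near the WT level in KO replicate 1 to the lowest in KO replicate 3. The means were 67.3 ± 11.5 and 32.3 ± 18.7 FPKM (SD, n = 3 each), with a log2 fold change of −1.18 with a 95% interval of −2.00 to −0.37 (limma, adjusted p 0.123). It was −0.76 without KO replicate 3 and −1.61 without KO replicate 1, where it passed the threshold (limma, adjusted p 0.0424). Slc2a4 is also expressed in skeletal muscle. KO replicate 1 had the lowest summed muscle marker level of the 6 libraries and the highest Slc2a4 of the KO libraries. KO replicate 3, with muscle markers inside the WT range, had the lowest Slc2a4. The part of muscle content in the Slc2a4 values was not tested.

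Tbc1d4 (210789; chromosome 14, 101442360 to 101609281, mm10), which encodes AS160, was measured with WT values of 7.47, 10.4 and 7.04 FPKM and KO values of 5.90, 4.25 and 3.73 FPKM. The nearest libraries of the groups were 7.04 and 5.90 FPKM. The means were 8.31 ± 1.83 and 4.63 ± 1.13 FPKM (SD, n = 3 each), with a log2 fold change of −0.73 with a 95% interval of −1.18 to −0.27 (limma, adjusted p 0.0969), and −0.57 to −0.88 when single libraries were left out. Pde3b (18576; chromosome 7, 114415222 to 114537938, mm10), the phosphodiesterase of the antilipolytic arm, was measured with 90.4, 62.1 and 53.2 FPKM for WT against 88.1, 72.5 and 139.6 FPKM for KO. KO replicates 1 and 2 lay within the WT range and KO replicate 3 above it. The log2 fold change was 0.52 with a 95% interval of −0.09 to 1.13 (limma, adjusted p 0.332), and 0.25 without KO replicate 3.

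**Figure D2:**
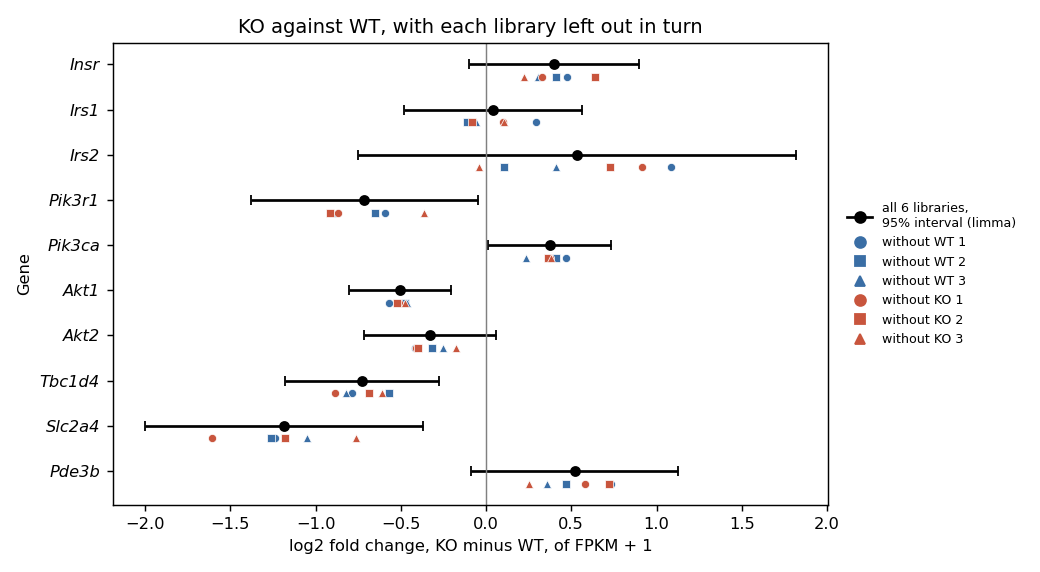
log2 fold change (KO minus WT, of FPKM + 1) of the 10 genes, in black with its 95% interval from limma over all 6 libraries, and in colour with each library left out in turn. Akt1 stays between −0.57 and −0.47, while Irs2 runs from −0.04, with KO replicate 3 left out, to 1.09, with WT replicate 1 left out.

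KO replicate 3 was the highest or the lowest of the 6 libraries in 8 of the 10 genes, the highest for Insr, Irs2 and Pde3b and the lowest for Pik3r1, Akt1, Akt2, Tbc1d4 and Slc2a4. Over all 13331 tested genes it was the highest or lowest in 36.5%, and over the 89 other pathway genes in 52.8%. WT replicate 3 was at an end in 6 of the 10 genes, beside 44.5% of all tested genes, and KO replicate 1 in 0 of the 10, beside 20.1%. In KO replicate 3, log2(FPKM + 1) was above the 6-library mean of the gene by 1.42 for Irs2, 0.79 for Pde3b and 0.55 for Insr. It was below that mean by a deviation of −1.43 for Slc2a4, −1.06 for Pik3r1 and −0.60 for Tbc1d4. KO replicate 3 had muscle markers at 1747 FPKM and adipocyte markers at 21229 FPKM in sum, both between the lowest and the highest of the other 5 libraries, and macrophage markers at 228 FPKM, below KO replicate 2. The adipocyte sum is mostly Fabp4, at 14000 FPKM in KO replicate 3. Of the single markers, picked after their values were seen, the adipocyte transcription factor gene Cebpa was at 73.4 FPKM in KO replicate 3 against 156 to 244 FPKM in the other 5 libraries. The macrophage gene Cd14 was at 14.5 FPKM there against 1.82 to 5.67 FPKM. Of the other adipocyte markers, Lep and Fabp4 were also lowest in KO replicate 3, Lep at 0.06 FPKM against 0.11 and 0.13 FPKM in KO replicates 1 and 2. Adipoq, Plin1, Cidec, Cidea, Pparg, Retn and Ucp1 were neither highest nor lowest there. Of the other macrophage markers, C1qb, Mrc1, Cd163 and Itgam were also highest in KO replicate 3. Adgre1, Cd68, Csf1r, Lyz2 and C1qa were neither highest nor lowest there. The part of these markers in the deviations of KO replicate 3 was not tested. Without KO replicate 3 the 10 genes still held 0 past the threshold (limma), with 3 at an unadjusted p under 0.05.

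**Figure D3:**
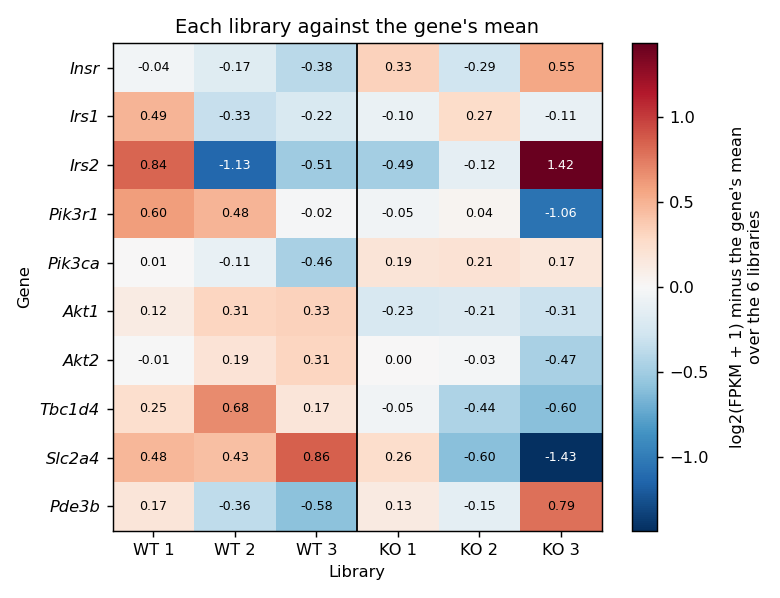
Deviation of log2(FPKM + 1) in each library from the 6-library mean of the gene, genes in rows and libraries in columns, red above and blue below the mean. KO replicate 3 holds the strongest colours, from −1.43 for Slc2a4 to 1.42 for Irs2, and WT replicate 1 is the other library with high Irs2 (0.84).

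Within WT the order of the levels, from high to low, was Akt2, Akt1, Pde3b, Slc2a4, Pik3r1, Insr, Tbc1d4, Irs1, Irs2 and Pik3ca. Neighbours in that order whose WT values did not overlap were Akt2 and Akt1, Slc2a4 and Pik3r1, Pik3r1 and Insr, and Insr and Tbc1d4. The last 4 genes, all with WT means of 7.85 to 8.31 FPKM, could not be ordered beyond their spread. In KO the mean of Pde3b, 100.05 ± 35.1 FPKM (SD, n = 3), was above that of Akt2, 89.6 ± 15.6 FPKM (SD, n = 3), with overlapping values. Pde3b was above Slc2a4 in all 3 KO libraries, while in WT the values of these genes overlapped.

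Several members have relatives that do the same step, and their balance was taken as the member's share of the summed FPKM of its paralog group, a value that does not depend on how a library is scaled. The catalytic subunit Pik3ca made up 55.4%, 57.8% and 53.0% of the sum with Pik3cb and Pik3cd in WT, and 64.5%, 62.3% and 68.7% in KO. All KO shares were above all WT shares, with a difference of 9.73 percentage points (exact permutation test, two-sided p 0.1, adjusted over the 8 shares computed 0.267). Pik3cb was at 4.88 ± 1.18 FPKM in WT and 4.04 ± 0.63 FPKM in KO, and Pik3cd at 1.40 ± 0.34 and 1.53 ± 0.28 FPKM (SD, n = 3 each). GLUT4 made up 91.2%, 89.8% and 91.6% of the sum of Slc2a4 and Slc2a1 in WT, and 89.0%, 85.1% and 56.4% in KO. Slc2a1 encodes GLUT1, the transporter of basal glucose uptake, and was at 12.06 FPKM in KO replicate 3 against 5.03 to 7.35 FPKM in the other 5 libraries. The difference in the GLUT4 share was −14.1 percentage points (exact permutation test, two-sided p 0.1, adjusted 0.267), and −3.86 without KO replicate 3. Pde3b held 93.9% to 95.7% of the sum with Pde3a in WT and 96.1% to 96.8% in KO, also without overlap (exact permutation test, two-sided p 0.1, adjusted 0.267).

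Of the other shares described here, all 4 overlapped between the groups. Insr made up 83.3% to 88.7% of the sum with Igf1r, the related receptor for insulin-like growth factors, over all 6 libraries. Pik3r1 made up 63.6% to 79.8% of the sum with Pik3r2 and Pik3r3. Tbc1d4 made up 55.3 ± 4.34% of the sum with Tbc1d1 in WT and 47.1 ± 6.53% in KO (SD, n = 3 each), and its relative Tbc1d1 was lower in each KO library (4.92 to 5.35 FPKM) than in any WT library (5.44 to 7.33 FPKM). Irs1 ran from 24.0% of the sum with Irs2 in KO replicate 3 to 66.1% in WT replicate 2.

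**Figure D4:**
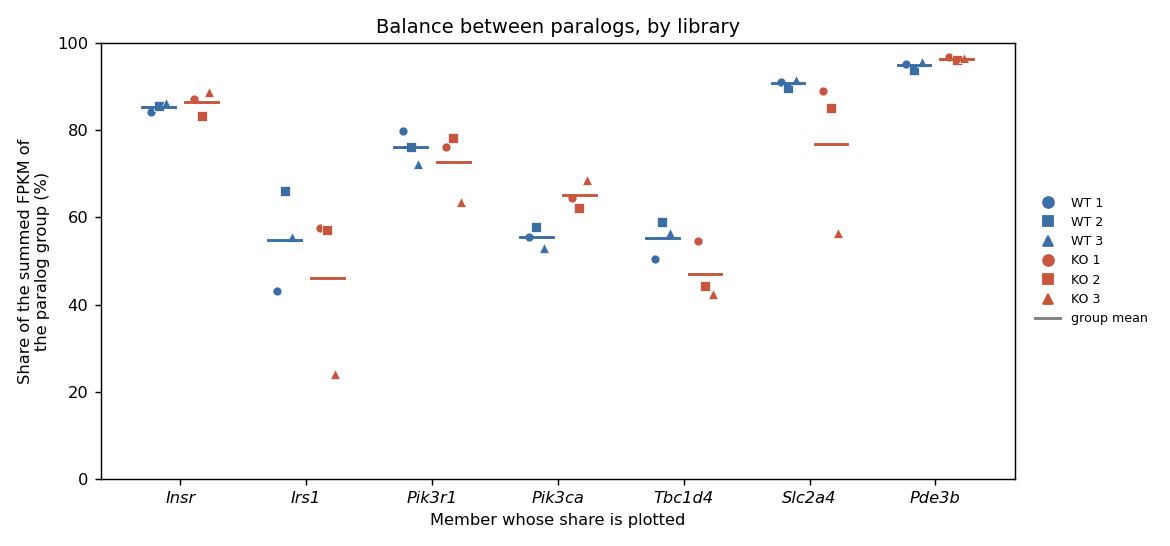
Share (percent) of each named member in the summed FPKM of its paralog group, by library, WT in blue and KO in red, with group means as bars. The groups are Insr with Igf1r, Irs1 with Irs2, Pik3r1 with Pik3r2 and Pik3r3, Pik3ca with Pik3cb and Pik3cd, Tbc1d4 with Tbc1d1, Slc2a4 with Slc2a1, and Pde3b with Pde3a. Pik3ca lies at 53.0% to 57.8% in WT and 62.3% to 68.7% in KO, and the Slc2a4 share of KO replicate 3 is 56.4%.

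Of 92 other genes of the pathway, 89 were tested and 1 passed, Pik3ip1, beside 2.21% of all tested genes. Their median log2 fold change was −0.07, with 51 lower and 38 higher, and the groups did not overlap in 29 of the 89, 16 lower and 13 higher, beside 24.9% of all tested genes. At an unadjusted p under 0.05 there were 10 lower and 11 higher, beside 19.2% of all tested genes, which is also the share to set beside the counts by role given next. Pik3ip1 (216505; chromosome 11, 3319241 to 3342971, mm10) encodes a membrane protein that binds the catalytic subunit of PI3 kinase and inhibits it. It rose from 1.68, 1.75 and 1.75 FPKM among WT libraries to 5.79, 6.60 and 9.02 FPKM among KO libraries. Every KO library was more than 3 times as high as every WT library. The KO mean was 4.13-fold the WT mean, with a log2 fold change of 1.56, a 95% interval of 1.17 to 1.95 and an adjusted p of 0.00816 (limma). It passed in all 16 alternatives in which it was tested, and was 1.40 without KO replicate 3.

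Among receptors and adaptors, 0 of 12 tested genes passed, with 3 at an unadjusted p under 0.05. The smallest p was that of Irs3, a substrate gene expressed in rodent fat, with 2.15, 5.24 and 3.53 FPKM for WT against 1.49, 0.91 and 0.38 FPKM for KO. Its groups were apart, with KO at 25.5% of the WT mean and a log2 fold change of −1.25 (SE 0.28; limma, adjusted p 0.0613). Irs3 passed without WT replicate 1 (−1.51; limma, adjusted p 0.0425), and its lowest value rests on about 12.3 fragments. Insrr, the insulin receptor-related receptor, was at 0 in 5 libraries and at 0.01 FPKM in the sixth. Of the 12 other PI3 kinase genes, Pik3ip1 included, 4 were lower and 8 higher. Their groups did not overlap in 2 lower and 4 higher genes, beside 24.9% of all tested genes. Pik3r3 had 67.1% of its WT mean in KO (limma, adjusted p 0.136), in the direction of Pik3r1. Pik3r5 and Pik3r4, picked after their values were seen, went the other way with groups apart. They had 186% and 126% of the WT mean (limma, adjusted p 0.0985 and 0.357). Pik3c3, chosen after its values were seen, encodes the kinase that makes the lipid of autophagy membranes. It was at 13.1 to 15.1 FPKM in KO and 7.54 to 10.4 FPKM in WT (limma, adjusted p 0.073).

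In the group of PDK1 and the mTOR complexes, 13 of 15 tested genes were lower and 2 higher, many by little (median log2 fold change −0.10), beside 6446 lower of 13331 over all tested genes, with 0 past the threshold and 3 at an unadjusted p under 0.05. Both higher genes had groups that did not overlap. Tsc1, a brake on mTOR complex activity, was measured with 4.55, 4.66 and 3.24 FPKM in the WT libraries against 6.10, 6.87 and 7.96 FPKM in the KO libraries (log2 fold change 0.64 in limma, adjusted p 0.0921). Rictor, the other, is the scaffold of the mTOR complex that phosphorylates AKT and had 157% of its WT mean in KO (limma, adjusted p 0.132). Among 16 tested inhibitors 0 passed, and the smallest p was that of Ptpn2, a tyrosine phosphatase gene, at 22.3 to 31.5 FPKM in WT and 31.6 to 51.5 FPKM in KO (log2 fold change 0.54 in limma, adjusted p 0.203, and 0.34 without KO replicate 3).

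Among AKT substrates and glycogen genes, 0 of 11 passed and 5 had an unadjusted p under 0.05. Ppp1r3d and Ppp1r3b encode subunits that target a phosphatase to glycogen, where it activates glycogen synthase. Ppp1r3d was measured with WT values of 40.6, 26.8 and 29.3 FPKM and KO values of 17.8, 15.8 and 7.60 FPKM, a log2 fold change of −1.23 (SE 0.29; limma, adjusted p 0.0658). Ppp1r3b was measured with 13.9, 17.6 and 15.7 FPKM for WT against 10.7, 5.71 and 3.02 FPKM for KO, with −1.29 (SE 0.33; limma, adjusted p 0.0811). Both had their lowest value in KO replicate 3, as Slc2a4 did. Ppp1r3c, in the same list and picked after its values were seen, had overlapping groups. It was at 110% of its WT mean (log2 fold change −0.08 in limma, adjusted p 0.949), with its lowest value, 6.42 FPKM, in KO replicate 3 too. Insulin signalling restrains the FOXO proteins, which are transcription factors. Of their genes, Foxo4 was at 157% of the WT mean with groups apart, and Foxo1 at 109.7% with overlapping groups (limma, adjusted p 0.0915 and 0.743). Foxo3, also with groups apart, was at 3.04 to 3.68 FPKM in WT and had KO values of 5.76, 3.81 and 11.15 FPKM (limma, adjusted p 0.229). KO replicate 2 was near the WT range and KO replicate 3 far above it. These 3 FOXO genes, Rictor and Lipe were chosen after their values were seen.

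Of 17 genes of GLUT4 traffic, 10 lower and 7 higher, 0 passed and 3 had an unadjusted p under 0.05, 2 lower and 1 higher. The groups did not overlap in 4 lower genes and 1 higher, beside 24.9% of all tested genes. The higher gene in both counts was Rhoq. Rhoq, which encodes the small GTPase TC10, was measured with 40.7, 30.03 and 38.8 FPKM in the WT libraries against 59.0, 51.5 and 55.5 FPKM in the KO libraries, higher in every KO library while Slc2a4 and Tbc1d4 were lower (log2 fold change 0.60 in limma, adjusted p 0.0855). Of the 6 lipid and cyclic AMP end points 0 passed. Srebf1, whose product switches on lipid synthesis under insulin, was measured with WT values of 34.4, 41.9 and 42.8 FPKM and KO values of 26.0, 25.5 and 11.0 FPKM (log2 fold change −0.99 in limma, adjusted p 0.118), and −0.60 without KO replicate 3. Lipe, which encodes the hormone-sensitive lipase that PDE3B restrains through cyclic AMP, had overlapping groups at 416 ± 44.8 and 337 ± 93.6 FPKM (SD, n = 3 each).

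**Figure D5:**
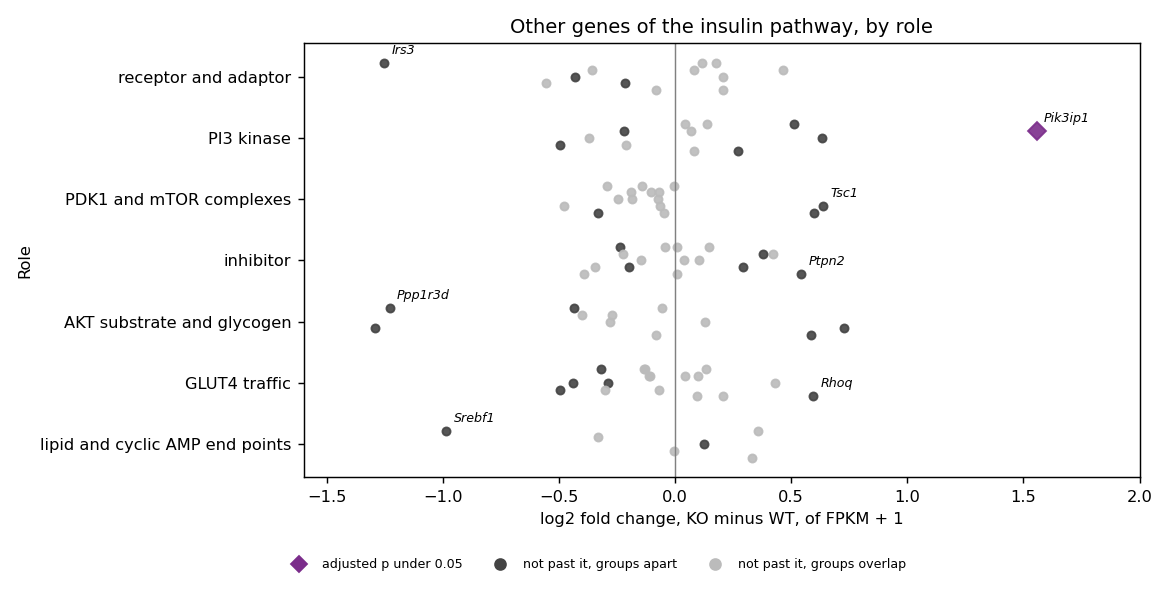
log2 fold change (KO minus WT, of FPKM + 1) of the 89 tested genes of the pathway outside the chain, by role. Pik3ip1, at 1.56, is the single gene past the adjusted threshold (diamond). Dark points are genes not past it whose groups do not overlap, and grey points those whose groups overlap. The smallest p of each role is labelled.

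The genes whose values followed a member most closely were found by the root mean square difference between profiles of log2(FPKM + 1), each centred on its own mean over the 6 libraries, among tested genes of at least 5 FPKM. For Akt1 these were Cox19 (0.03 on the log2 scale) and Rmnd5b (0.05), which were at 24.1 to 25.7 and 9.41 to 10.01 FPKM in KO and at 32.7 to 37.7 and 12.5 to 15.7 FPKM in WT. For Tbc1d4 they were Slc11a2 (0.08) and Cyb5b (0.09), and Cyb5b passed the threshold (limma, adjusted p 0.0423). For Slc2a4 they were Zbtb7b (0.14), with 41.8, 30.2 and 45.9 FPKM in the WT libraries against 26.7, 15.8 and 7.68 FPKM in the KO libraries, and Ppp1r3b (0.18). Since the measure takes in the difference between the groups, these genes share the direction of the member by construction.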

How the data were processed

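RNA of whole interscapular brown fat of newborn mice was sequenced in 3 WT and 3 KO libraries. The deposited values are FPKM, which the authors computed per gene and rounded to 2 decimals, per the file headers and values. The submitters' processing notes name mm10, HISAT2 2.0.4, Bowtie2 2.2.5 and a differential expression package without a version, with no role for each. Strand handling and filters are not given in the sources used here. Groups and replicate numbers came from the sample titles. Nothing says whether the libraries of a group came from separate animals, so p-values measure the spread between these libraries.

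The values were taken as log2(FPKM + 1), which understates fold changes of low genes. The 13331 genes whose mean reached 0.5 FPKM were fitted with limma 3.58.1 in R 4.3.3 (eBayes with trend, no covariates, Benjamini-Hochberg over all tested genes, threshold 0.05). The fit was tested on simulated data. Exact permutation tests used the FPKM or shares. Depth was estimated from the whole-read steps of low FPKM of single-transcript genes. The depth taken was the one, of those tried, that put most values within 0.2 of a whole number. That share was 80.4% to 83.7% at the best depth, beside a median of 33.9% to 36.5% over all depths tried. Transcript lengths came from GENCODE vM21, and positions and promoter windows from RefSeq GRCm38.p6.

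The 10 members and the gene lists were chosen with earlier results of these data known. Genes outside the members were named by a rule. It took pathway genes past the threshold, the smallest p in each role, paralogs of a member and a few markers. It also took 2 genes with the profile most like each of the 3 members with the smallest p. Genes that the text says were chosen after their values were seen fall outside it. So do Insrr and the markers named singly other than Adipoq and Plin1, with their values known. Alternatives were other pseudocounts, filters, scalings, eBayes settings, array weights, a replicate block and leaving out each library. Further marker lists for endothelium, red cells and fibroblasts were measured. The groups overlapped in every endothelial and erythroid marker. Of 10 fibroblast and preadipocyte markers 2, Thy1 and Ly6a, were higher in every KO library, beside 1810 of 13331 tested genes. Both passed the threshold (limma, adjusted p 0.0164 and 0.0332), and their part in the results was not tested. Figures were drawn with matplotlib 3.10.9. Of the 8 paralog shares, 7 are described, and some genes of the pathway are counted but not reported here by name.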

Additional observations from a re-analysis of the deposited data

How the results depend on the processing

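Of the 10 genes, 0 passed in all alternatives but array weights, with 4 (Pik3r1, Akt1, Tbc1d4 and Pde3b), and leaving out single libraries, with 0 to 1 (Slc2a4 without KO replicate 1). Array weights weighted WT replicate 2 at 6.70, the others at 0.368 to 1.67, and called 3181 genes overall and 23 other pathway genes. Over all genes 295 of 13331 passed, against 35 of 19241 without a filter on low values, and 31 to 370 without 1 library. For the other pathway genes single libraries gave 1 to 2. At a filter of 5 FPKM the 1 called was Ppp1r3d, since Pik3ip1 falls below that filter by its mean. Leaving out libraries turned Irs1 (−0.11 to 0.30) and Irs2 (−0.0397 to 1.09) on the log2 scale, and the shares of Insr (−0.0725 to 2.64 percentage points), Irs1 (−14.6 to 2.40) and Pik3r1 (−6.24 to 1.07); the cause was not tested. The other 8 genes kept their direction in all 17 alternatives, the scalings included.

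WT and KO share replicate numbers. After subtracting group means, WT and KO libraries of equal number had correlations of 0.0681, 0.0433 and 0.0433, so no pairing was assumed, although each library correlated best with its own number. With the replicate block 167 genes, 0 of the 10 and 1 other pathway gene were called.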

Other observations

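Irs2 was also compared with all tested genes of at least 5 FPKM for the profile most like its own, a choice made after its values were seen. The closest were Kctd12 (root mean square difference 0.42 on the log2 scale), Tmcc2 (0.47) and Gadd45g (0.48). These differences were larger than those of the best matches of Akt1, Tbc1d4 and Slc2a4, but the measure is not scaled to a gene's own spread. Irs2 ran from −1.13 to 1.42 around its mean and Akt1 from −0.31 to 0.33, so closeness cannot be compared between members. Gadd45g, a stress-inducible gene, measured 134, 82.5 and 146 FPKM in the WT libraries and 96.4, 102 and 327 FPKM in the KO libraries. Kctd12 measured 31.4, 17.5 and 19.5 FPKM in WT and 19.05, 22.5 and 45.3 FPKM in KO. Both had their highest value in KO replicate 3, as Irs2 did, and Kctd12 had its second highest in WT replicate 1.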
